A study of Caenorhabditis elegans with 20 samples.

Results

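Whole young adult Caenorhabditis elegans carrying the allele ns889 were compared with wild-type (WT) animals after both had met the mold Penicillium brevicompactum. The labels define its samples, and it was picked for description with earlier results of these data known. It takes 10 of the 20 libraries of the series, which are 6 of its 12 replicates, 3 with each genotype. Each WT-with-mold replicate and each ns889-with-mold replicate came from animals kept at 20 C on NGM agar plates with Escherichia coli OP50 for about 48 hours after L1 arrest, with the mold present. Poly(A) RNA of whole animals was sequenced as stranded mRNA libraries. The other 6 replicates, WT and ns889 without the mold, are used to test whether a genotype difference depended on the mold, and they share the model's estimate of the spread. The labels name ns889 as an allele and not the gene it affects, so no check of a targeted gene could be made. Nothing in them states that replicates came from separate cultures, and the p-values therefore measure the spread between these samples.

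Animals dispose of foreign small molecules in stages. Cytochrome P450 enzymes and dehydrogenases first oxidise or reduce a compound, UDP-glycosyltransferases and glutathione S-transferases then attach a sugar or glutathione, and ABC transporters export the product, while nuclear hormone receptors are known as regulators of many such genes. In C. elegans the intestine is the main site of this work, and it also makes lysozymes, lectins and other secreted proteins that act on microbes taken in with the food.

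The replicates with mold held 99851194 to 111234666 counted reads, and those without mold 95998037 to 115940062. Levels are given as CPM, TMM-scaled counts relative to the library total, and 3 counts equal 0.0259 to 0.0313 CPM before scaling, a floor that covers counting error only. Genes numbered 16980 after the filter on low counts. WT with mold replicates 3 and 1 lay 0.355 and 0.328 (root mean square log2 difference) from the other replicates of their group, WT without mold replicate 1 lay 0.424 from its own, and the remaining replicates lay 0.153 to 0.262 from theirs. Of the intestine, body wall muscle, neuron, hypodermis, amphid sheath glia and pharynx markers, all 38 were above the floor in each replicate with mold. The floor is low and these genes had passed the filter on low counts, so this says little of tissue content. Called members of these marker lists numbered 0 of 6 for intestine, 0 of 6 for body wall muscle and 0 of 8 for neurons. They numbered 0 of 6 for hypodermis, 0 of 7 for amphid sheath glia and 1 of 5 for pharynx. Sperm and oocyte genes are taken up with the reproduction lists. In RNA from whole animals, fewer cells of a type and less RNA per cell cannot be told apart.

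On mold, genes lower in ns889 included members of detoxification and antimicrobial families, and some infection response genes were higher. At an edgeR adjusted p under 0.05, 870 genes (5.12% of those tested) were higher in ns889 than in WT and 273 (1.61%) were lower, 1143 (6.73%) in all. These shares are the background for the counts of called list members below. The median size of the called differences was 1.07 on the log2 scale for higher genes, of which 472 reached 1, and 0.638 for lower genes, of which 90 reached 1. Levels of the 3 ns889 and 3 WT replicates did not overlap for 868 of the 870 and 270 of the 273 called genes, against 31.4% of all genes tested. Overlap was read from the same 6 replicates as the calls, so here and below it describes called genes and is no separate evidence. The counts moved with single replicates. Without WT replicate 1, 2 or 3 the test called 1326, 408 or 506 genes higher and 542, 137 or 217 lower, and without ns889 replicate 1, 2 or 3 it called 520, 477 or 496 higher and 155, 117 or 175 lower. In all 6 of these fits 350 higher and 107 lower genes of the full comparison kept their call.

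**Figure D1:**
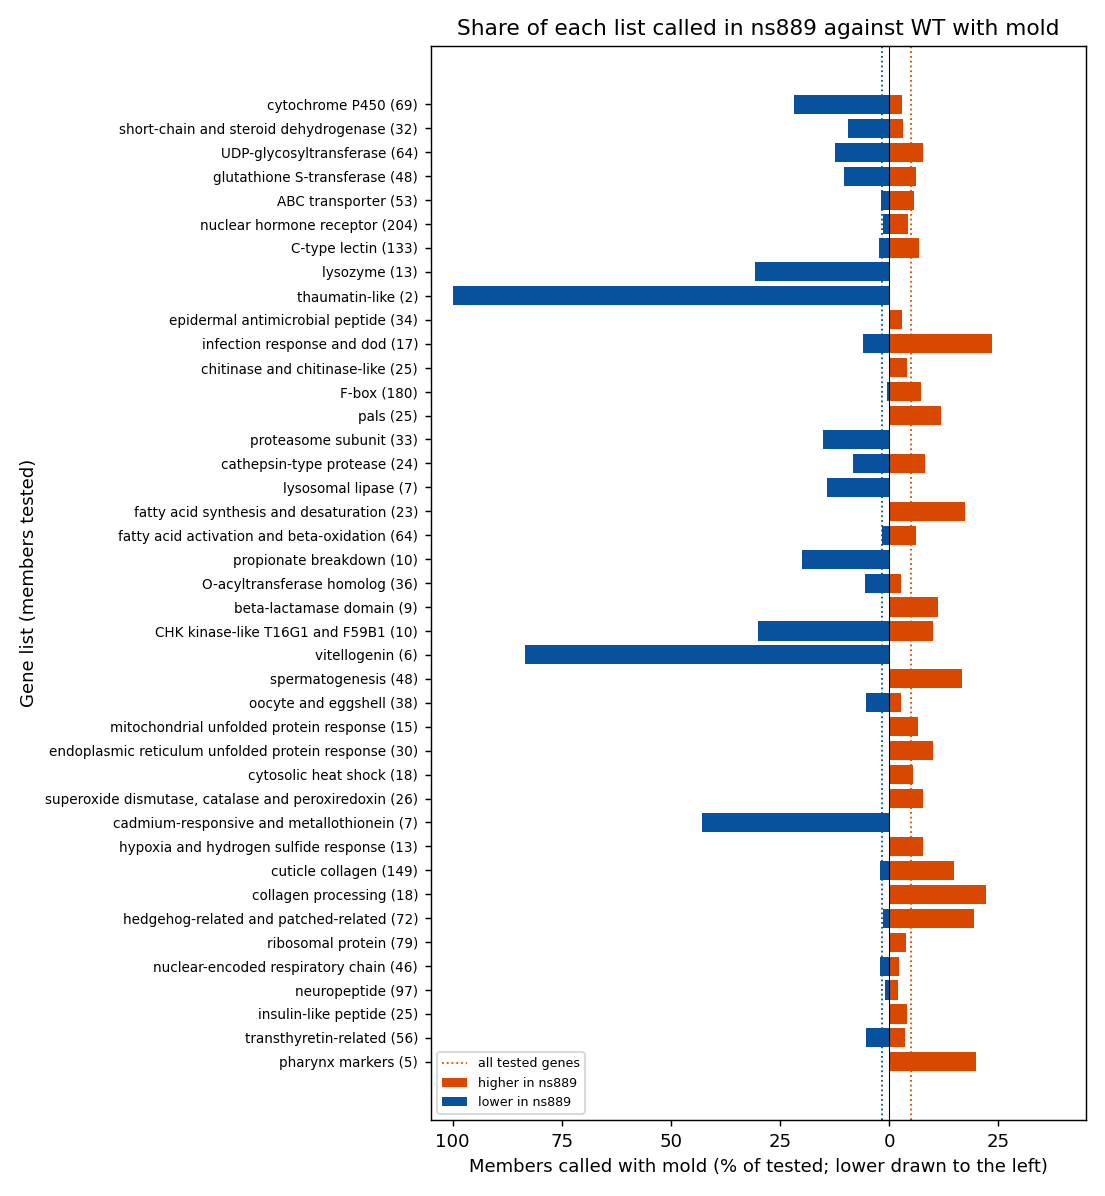
Share of the tested members of each gene list (vertical axis, members tested in brackets) that were called in ns889 against WT with mold, in percent, with lower members drawn to the left of 0 and higher members to the right. Dotted lines mark the shares over all tested genes, 1.61% lower and 5.12% higher, and lists with no called member are left out; the longest bars to the left belong to thaumatin-like, vitellogenin, cadmium-responsive, lysozyme, CHK kinase-like and cytochrome P450 genes.

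Cytochrome P450 genes, the oxidising enzymes of the first stage, were lower in ns889 far more often than higher: 15 of 69 tested members were lower and 2 higher, against 1.61% and 5.12% of all genes. Their median difference was -0.165 on the log2 scale, against -0.00752 over all genes. The summed level of the 69 genes was 867.1, 958.1 and 803.5 CPM in the WT replicates and 644.4, 604.9 and 572.7 CPM in ns889, so the groups did not overlap. Abundant members dominate this sum, and 30 of the 69 had a log2 fold change above 0. With any 1 replicate left out, 14 or 15 members were lower.

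The P450 gene cyp-14A4 (WBGene00011009, chromosome X, 13282096 to 13284204 in WBcel235) stood at 22.9, 36.4 and 28.1 CPM in WT and at 0.582, 0.351 and 0.436 CPM in ns889. Every ns889 replicate was far below every WT replicate, with a ratio of group means of 63.8 and a log2 fold change of -5.99 ± 0.28 (edgeR adjusted p = 3.20e-07). Levels of cyp-33C2 (WBGene00016697, chromosome V, 2183521 to 2186535 in WBcel235) varied widely in WT, at 34.7, 93.2 and 12.3 CPM, and were low and even in ns889, at 0.464, 0.425 and 0.687 CPM. Its log2 fold change was -6.47 ± 0.65 (edgeR adjusted p = 0.000119), and the groups did not overlap. The most abundant of the 3, cyp-13A12 (WBGene00008810, chromosome III, 13024547 to 13028012 in WBcel235), was at 145, 189.9 and 129 CPM in WT and at 31.3, 20 and 11 CPM in ns889. It was 7.44-fold lower in ns889 and yet well detected there (log2 fold change -2.90 ± 0.36, edgeR adjusted p = 0.000589).

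Several cyp-13A genes lie side by side on chromosome II, apart from cyp-13A12. Between cyp-13A4 and cyp-13A8 (9795848 to 9807532), an interval chosen after the values were seen, 4 of 5 tested genes were lower in ns889. Both end genes were among the 4, and 1.61% of all genes were lower. cyp-13A5 was the gene not called (-0.26 ± 0.19). Beyond this stretch on the same chromosome, cyp-13A2 went the other way, at 15.5, 12 and 8.97 CPM in WT and 49.6, 41.5 and 39.7 CPM in ns889 (log2 fold change 1.84 ± 0.30). The groups did not overlap for cyp-13A2, and it was 1 of the 2 higher P450 genes, with cyp-13B1 (2.34 ± 0.35). Within the stretch, cyp-13A8 was at 111, 95.6 and 84.3 CPM in WT and at 48.8, 18.6 and 16 CPM in ns889 (log2 fold change -1.80 ± 0.34), a difference in which ns889 replicate 1 stood apart from the other two. Reads of cyp-13A7, near the floor in ns889 at 0.0636, 0.0185 and 0.00928 CPM against 1.26, 1.51 and 1.09 CPM in WT, gave no usable fold. Paralogs this similar may share reads, and neither the handling of shared reads nor the strand setting of the counting is given in the sources used here. cyp-13A2, cyp-13A8 and cyp-13B1 were picked here after their values were seen.

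Short-chain and steroid dehydrogenase genes were called lower in 3 of 32 cases and higher in 1, a higher call that was lost without WT replicate 2. The steroid dehydrogenase family gene stdh-2 was at 17.9, 27.7 and 27.3 CPM in WT and at 1.24, 0.342 and 0.325 CPM in ns889. Every ns889 replicate was below every WT replicate (log2 fold change -5.25 ± 0.44, edgeR adjusted p = 2.49e-05). dhs-23 (-2.36 ± 0.40) and dhs-7 (-0.80 ± 0.15) were the others that were lower. A gene of the beta-carotene monooxygenase family, bcmo-2, which cleaves or isomerises carotenoid-like substrates in other animals, was at 20, 26.2 and 20.3 CPM in WT and 2.26, 2.28 and 1.74 CPM in ns889. The groups were even within themselves and did not overlap (log2 fold change -3.40 ± 0.17, edgeR adjusted p = 3.61e-07).

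**Figure D2:**
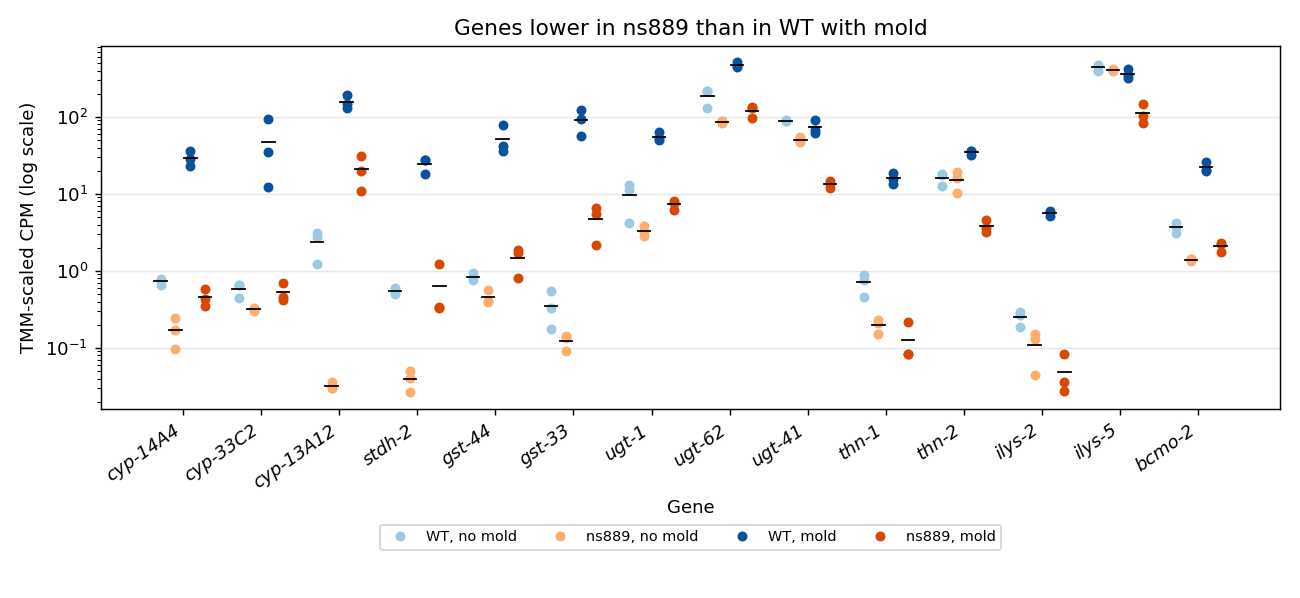
Level in TMM-scaled CPM (vertical axis, log scale) of 14 genes (horizontal axis) that were lower in ns889 with mold, with 1 point per replicate in each of the 4 groups and a line at the group mean. With mold, the 3 ns889 points of each gene lie below the 3 WT points, from about 510 against 133 CPM at the top for ugt-62 to values near the floor for ilys-2.

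Among the conjugating enzymes of the second stage, UDP-glycosyltransferase genes were lower in 8 of 64 cases and higher in 5. The shares over all genes were 1.61% and 5.12%. All 8 lower members kept their call whichever replicate was left out, while the higher count went to 6, 3 and 3 without WT replicates 1, 2 and 3 and to 2, 3 and 3 without ns889 replicates 1, 2 and 3. The median of the list was 0.0266. The summed level was 1764, 1650 and 1608 CPM in WT and 1204, 1156 and 1234 CPM in ns889, without overlap. Abundant members such as ugt-62 weigh most in this sum, and 35 of the 64 had a log2 fold change above 0.

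ugt-62 (WBGene00010904, chromosome III, 4537277 to 4540644 in WBcel235), the most abundant of the lower members named here, was at 510, 465 and 439 CPM in WT and at 133, 97.8 and 129 CPM in ns889. It was 3.93-fold lower, with no overlap between the groups (log2 fold change -1.98 ± 0.18, edgeR adjusted p = 4.07e-05). ugt-41 was at 60.9, 68.3 and 89.9 CPM in WT and 13.3, 11.9 and 14.7 CPM in ns889 (-2.46 ± 0.13). ugt-1 was at 52.7, 63.7 and 49.9 CPM and 7.69, 8.05 and 6.23 CPM in the same order (-2.92 ± 0.32). Both were lower in each ns889 replicate than in any WT replicate, and the list also held ugt-37 (-3.21 ± 0.31) and ugt-32 (-3.65 ± 0.30) among its lower members. ugt-37 and ugt-41 lie close together on chromosome V (7141942 to 7163595), an interval chosen after the values were seen. Of its 6 tested genes 2 were lower, the end genes themselves, and 1 higher, against 1.61% and 5.12% of all genes. The higher gene, F10D2.10, is taken up with the mold-dependent differences.

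Glutathione S-transferase genes, which attach glutathione, split in 2 directions: 5 of 48 were lower and 3 higher, against 1.61% and 5.12% of all genes. The median of the list was -0.0945. gst-33 (WBGene00001781, chromosome V, 3467453 to 3468545 in WBcel235) was at 93.5, 124 and 57.3 CPM in WT and at 6.6, 5.45 and 2.17 CPM in ns889, and gst-44 (WBGene00001792, chromosome V, 16390891 to 16392406 in WBcel235) at 35.7, 77.8 and 41.4 CPM in WT and 1.69, 1.86 and 0.817 CPM in ns889. Both were lower in every ns889 replicate, with log2 fold changes of -4.27 ± 0.42 for gst-33 and -5.15 ± 0.36 for gst-44 (edgeR adjusted p = 0.000115 and 7.28e-06). In the opposite direction, gst-38 (WBGene00001786, chromosome V, 15915216 to 15916079 in WBcel235) was at 4.62, 3.11 and 1.78 CPM in WT and at 51.1, 39.4 and 13.3 CPM in ns889. The groups did not overlap, although ns889 replicate 3 was well below the other two (log2 fold change 3.45 ± 0.49, edgeR adjusted p = 0.00125). gst-4, widely used as a reporter of the oxidative stress regulator SKN-1, was at 22.4, 22 and 18 CPM in WT and at 73.4, 51.8 and 45 CPM in ns889. It was thus 2.73-fold higher in ns889 (log2 fold change 1.45 ± 0.20, edgeR adjusted p = 0.000993), and the summed levels of the whole list overlapped between the groups, at 553.9 to 755.7 CPM in WT and 546.3 to 650.2 CPM in ns889.

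Smaller shares of the export and regulation genes were called than of the enzyme families above. Of 53 ABC transporter genes 3 were higher and 1 lower, close to the shares over all genes; mrp-3, of the multidrug resistance protein family, was the lower one (-0.48 ± 0.08). Without WT replicate 1 the ABC transporter counts were 8 higher and 3 lower, and without WT replicate 3 they were 3 and 3; without ns889 replicate 3 they were 2 and 2. Nuclear hormone receptor genes were higher in 9 of 204 cases and lower in 3, also near those shares. Left out in turn, WT replicates 1, 2 and 3 gave 7, 2 and 3 higher and 5, 1 and 3 lower receptors, and ns889 replicates 1, 2 and 3 gave 5, 2 and 4 higher and 2, 2 and 1 lower.

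The receptor gene nhr-45 (WBGene00003635, chromosome X, 4656433 to 4660318 in WBcel235) was at 15.5, 16.7 and 14.9 CPM in WT and at 35.8, 35.4 and 31.7 CPM in ns889. Its replicates were tight in both groups, and the groups did not overlap, with a ratio of means of 2.18 (log2 fold change 1.13 ± 0.11, edgeR adjusted p = 6.21e-05). nhr-232 was also higher (1.17 ± 0.13), and nhr-142 was lower, from 4.39, 5.55 and 4.79 CPM in WT to 1.45, 1.03 and 0.826 CPM in ns889 (-2.16 ± 0.26). For nhr-156 the replicates overlapped, with 6.26, 5.3 and 5.98 CPM in WT and 5.32, 3.98 and 6.02 CPM in ns889 (-0.20 ± 0.20, edgeR adjusted p = 0.55).

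Some genes of the lysozyme and thaumatin-like families, which encode secreted antimicrobial proteins, were lower in ns889. Lysozymes cut bacterial cell walls, and thaumatin-like proteins are named after the plant protein thaumatin. Lysozyme genes were lower in 4 of 13 cases and higher in 0, and 4 were lower whichever replicate was left out. Both thaumatin-like genes tested were lower. The summed lysozyme level was 1061, 1053 and 894.2 CPM in WT and 729.9, 720.5 and 694.8 CPM in ns889, without overlap. Abundant members such as ilys-5 weigh most in this sum. Of the 13 genes 2 had a log2 fold change above 0.

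thn-1 (WBGene00009213, chromosome IV, 12380104 to 12380857 in WBcel235) had the lowest log2 fold change among the named genes. It was at 13.5, 15.6 and 18.5 CPM in WT and at 0.218, 0.0831 and 0.0835 CPM in ns889. That is a log2 fold change of -6.93 ± 0.37 (edgeR adjusted p = 5.91e-07). The ns889 levels of thn-1 were close to the floor, so the size of this fold is uncertain. Its neighbour thn-2 (WBGene00009215, chromosome IV, 12383170 to 12384019 in WBcel235) was at 36.6, 35.6 and 32.4 CPM in WT and at 3.65, 3.2 and 4.55 CPM in ns889 (-3.20 ± 0.23, edgeR adjusted p = 9.91e-06). For both genes every ns889 replicate was far below every WT replicate, and ns889 replicate 1 was above the other two for thn-1.

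ilys-5, an invertebrate-type lysozyme gene and the most abundant of the lower lysozymes, was at 321, 425 and 350 CPM in WT and at 83.2, 102 and 148 CPM in ns889 (-1.72 ± 0.17, edgeR adjusted p = 0.000115). lys-7, a lysozyme gene known from C. elegans infection studies, was at 12, 18.1 and 11.4 CPM in WT and 4.5, 6.61 and 5.64 CPM in ns889 (-1.31 ± 0.24). Neither gene overlapped between the groups. ilys-2 was at 5.82, 6.04 and 5.12 CPM in WT and close to the floor in ns889, at 0.0364, 0.0831 and 0.0279 CPM, so that no fold is given (edgeR adjusted p = 1.60e-06). ilys-3 was lower as well, from 0.3, 0.329 and 0.513 CPM in WT to 0.0182, 0 and 0.0557 CPM in ns889, a level at or near the floor.

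Some genes known from responses to infection were higher in ns889 on mold. Of 17 irg (infection response gene) and dod (downstream of daf-16) genes, 4 were higher and 1 lower, dod-23 (-1.05 ± 0.20), against 5.12% and 1.61% of all genes, and 12 were not called. These calls were kept whichever replicate was left out. The median of the list was 0.262. dod-24 (WBGene00007875, chromosome IV, 12940106 to 12941405 in WBcel235) was at 33.5, 26.2 and 28.4 CPM in WT and at 251, 209 and 175 CPM in ns889. All 3 ns889 replicates were far above the WT replicates, with a ratio of means of 7.21 (log2 fold change 2.85 ± 0.21, edgeR adjusted p = 9.46e-06).

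dod-24 lies among related genes on chromosome IV, several of which encode secreted proteins with a CUB-like domain. Between irg-6 and dod-17 (12912790 to 12978343), an interval chosen after the values were seen, 6 of 15 tested genes were higher in ns889 and 0 lower, and all 15 had a log2 fold change above 0. Both end genes were among the 6, and 5.12% of all genes were higher. C32H11.4 was at 5.22, 7.19 and 4.67 CPM in WT and at 44.3, 34.1 and 22.4 CPM in ns889 (2.56 ± 0.34). F55G11.2 was at 3.93, 4.15 and 4.04 CPM in WT and at 30.3, 29.8 and 18.6 CPM in ns889 (2.70 ± 0.23). Neither overlapped between the groups, and dod-17 (1.36 ± 0.25), irg-6 (3.87 ± 0.62) and C32H11.3 (1.75 ± 0.33) were the remaining higher genes of the interval. irg-5, on chromosome V and so not one of them, was at 0.744, 0.801 and 0.719 CPM in WT and 3.82, 5.3 and 2.41 CPM in ns889, with no overlap (2.35 ± 0.28, edgeR adjusted p = 0.000333).

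Sugar-binding proteins of the C-type lectin family had 9 of 133 tested genes higher and 3 lower, near the shares over all genes. Without WT replicates 1, 2 and 3 they were 12, 5 and 3 higher and 5, 1 and 3 lower, and without ns889 replicates 1, 2 and 3 they were 3, 5 and 6 higher and 0, 0 and 3 lower. clec-3 (WBGene00016577, chromosome II, 3017482 to 3019907 in WBcel235) kept its call in each of those fits. It was at 1.14, 0.719 and 1.11 CPM in WT and at 11.7, 8.55 and 8.43 CPM in ns889, without overlap (3.27 ± 0.24, edgeR adjusted p = 1.05e-05). clec-52 was also higher, at 4.95, 10.7 and 9.73 CPM in WT and 24, 32.6 and 22.8 CPM in ns889 (1.65 ± 0.32), with no overlap.

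F-box genes, many of which encode substrate adaptors of ubiquitin ligases, were higher in 13 of 180 cases and lower in 1, near the 5.12% and 1.61% over all genes. Without WT replicates 1, 2 and 3 they numbered 17, 8 and 10 higher and 1, 0 and 0 lower, and without ns889 replicates 1, 2 and 3 they numbered 9, 8 and 13 higher and 0 lower in each. fbxa-24 was at 4.35, 4.22 and 4.08 CPM in WT and at 8.89, 12.1 and 10.1 CPM in ns889 (1.30 ± 0.13), and fbxa-182 at 5.5, 4.21 and 6.1 CPM and 13.6, 13.3 and 10.9 CPM (1.25 ± 0.17). Neither gene overlapped between the genotypes. Of 25 pals genes, part of the response to intracellular pathogens, 3 were higher, a count of 2, 1 and 3 without WT replicates 1, 2 and 3 and of 3, 1 and 1 without ns889 replicates 1, 2 and 3. pals-6 was kept throughout (1.05 ± 0.20).

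Of 33 proteasome subunit genes 5 were called lower in ns889, against 1.61% of all genes. Of the 33, 32 had a log2 fold change below 0, and the median was -0.189 against -0.00752 over all genes. The summed level was 5734, 5847 and 6165 CPM in WT and 5379, 5029 and 5109 CPM in ns889, which did not overlap. The calls were not stable, at 11, 0 and 1 without WT replicates 1, 2 and 3 and 0 without any of the ns889 replicates.

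**Figure D3:**
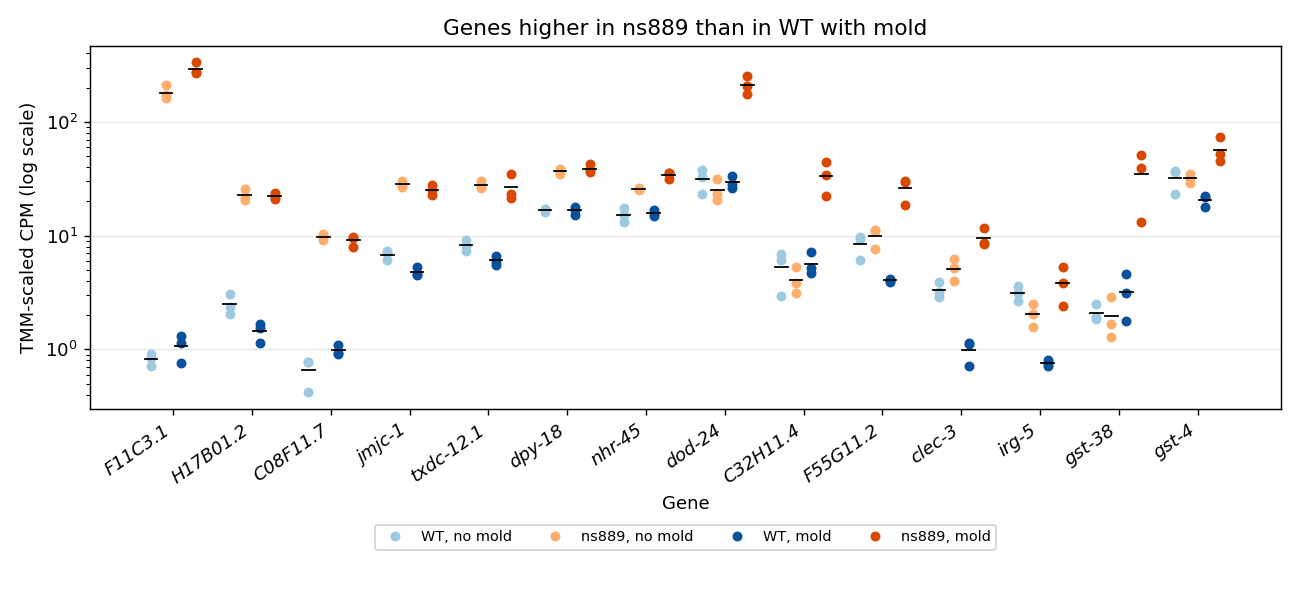
Level in TMM-scaled CPM (vertical axis, log scale) of 14 genes (horizontal axis) that were higher in ns889 with mold, with 1 point per replicate in each of the 4 groups and a line at the group mean. The 7 genes from F11C3.1 to nhr-45 are higher in ns889 in both conditions, while dod-24, C32H11.4, irg-5, gst-38 and gst-4 separate the genotypes with mold and overlap or reverse without it.

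The highest log2 fold change of any called gene belonged to F11C3.1 (WBGene00008695, chromosome I), a gene named by its sequence identifier. It was at 0.753, 1.33 and 1.15 CPM in WT and at 275, 334 and 268 CPM in ns889. The ratio of means was 271, with tight replicates in both groups (log2 fold change 8.09 ± 0.21, edgeR adjusted p = 5.46e-10). Without mold the same gene was at 0.844, 0.906 and 0.708 CPM in WT and at 161, 171 and 211 CPM in ns889 (7.79 ± 0.21). Of the 3 tested genes on each side of it, aex-5 (1.38 ± 0.13), unc-122 (0.53 ± 0.14) and ptr-23 (0.37 ± 0.10) were also higher, while unc-54 (0.04 ± 0.13), frm-1 (-0.10 ± 0.09) and str-245 (0.78 ± 0.61) were not called. The calls of unc-122 and ptr-23 were close to the threshold (edgeR adjusted p = 0.0367 and 0.0378), and neither was kept in all 6 fits with 1 replicate left out. These neighbours were looked up after the values were seen.

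Other genes that were far higher in ns889 on mold were also higher without it. H17B01.2 was at 1.68, 1.53 and 1.13 CPM in WT and at 24, 21.9 and 21.1 CPM in ns889 (3.94 ± 0.19, and 3.19 ± 0.18 without mold). C08F11.7 was at 0.917, 0.935 and 1.1 CPM in WT and at 8.02, 9.55 and 9.7 CPM in ns889 (3.21 ± 0.21, and 3.88 ± 0.22 without mold). Neither showed overlap between the genotypes in either condition. Collagen processing genes, which modify and fold collagen chains in the secretory pathway, were higher in 4 of 18 cases, against 5.12% of all genes. Of the 18, 17 had a log2 fold change above 0, with a median of 0.219 against -0.00752 over all genes. Without WT replicate 1, 7 were higher, and with any other replicate left out 3 or 4. dpy-18, a catalytic subunit of prolyl 4-hydroxylase, was at 18, 16.8 and 15.3 CPM in WT and at 43.1, 36.2 and 37.4 CPM in ns889 (1.22 ± 0.09, and 1.12 ± 0.09 without mold). Each ns889 replicate was above each WT replicate, and phy-2, another subunit of that enzyme, was higher too (0.69 ± 0.09). Outside the lists and chosen after their values were seen, jmjc-1 (5.32, 4.64 and 4.5 CPM in WT and 22.7, 25.5 and 27.9 CPM in ns889), which encodes a JmjC-domain protein, txdc-12.1 (2.13 ± 0.17), with a thioredoxin domain, and fkb-5 (1.73 ± 0.14), a peptidyl-prolyl isomerase of the FK506-binding family, were higher in each ns889 replicate than in any WT replicate.

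The same genotype contrast without mold, in the other 6 replicates of the same model, called 411 genes higher (2.42%) and 77 lower (0.453%), or 2.87% in either direction. Genes higher in both conditions numbered 320, which is 36.8% of those called with mold and 77.9% of those called without. Genes lower in both numbered 61, or 22.3% and 79.2% of the respective lists, and 0 genes were called in opposite directions. Of the genes called only with mold, 550 were higher and 212 lower, which does not show by itself that they differed between the conditions. Across the 16980 genes, which are not independent replicates, the 2 contrasts had a Pearson correlation of 0.535 (Spearman 0.486), and across the 1143 genes called with mold 0.717 (0.68). Leaving out WT without mold replicate 1 raised the lower calls without mold to 211, while leaving out WT without mold replicate 3 or ns889 without mold replicate 2 gave 48 or 43.

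**Figure D4:**
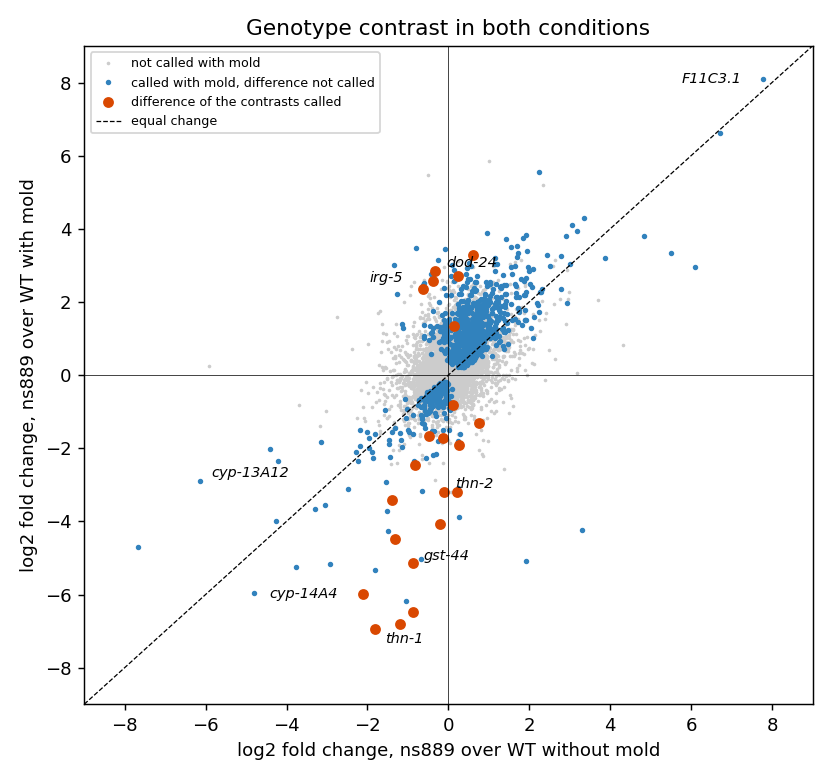
Log2 fold change of ns889 over WT without mold (horizontal axis) against that with mold (vertical axis), 1 point per tested gene, with genes called with mold in blue and the 22 genes whose contrast differed between the conditions in orange. F11C3.1 lies near the dashed line of equal change at 7.79 and 8.09, whereas thn-1, thn-2, gst-44 and cyp-14A4 lie far below that line and dod-24 and irg-5 far above it.

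The test of the difference itself called 22 genes: the contrast was more negative with mold for 16 (0.0942% of genes) and more positive for 6 (0.0353%). All 22 were also called in the contrast with mold, and 5 in the contrast without. The difference counts moved with 1 library, to 24 more positive genes without WT without mold replicate 1, and lay at 4 to 24 and 11 to 21 over all fits with 1 replicate left out. Detoxifying and antimicrobial genes made up much of the more negative group: cyp-33C2, cyp-14A4, gst-44, ugt-37, ugt-41, thn-1, thn-2, ilys-2, ilys-5 and lys-7. For thn-2 the genotypes overlapped without mold, at 12.8, 18.2 and 17.8 CPM in WT and 10.2, 16 and 19.4 CPM in ns889 (-0.10 ± 0.21), and the contrast differed by -3.10 ± 0.31 between the conditions (edgeR adjusted p = 0.00167). cyp-14A4 was lower in ns889 in both conditions, with 0.76, 0.654 and 0.78 CPM in WT and 0.0977, 0.241 and 0.171 CPM in ns889 without mold (-2.11 ± 0.30), and its contrast still differed by -3.88 ± 0.42 (edgeR adjusted p = 0.00214). Without mold lys-7 was at 11, 19.4 and 15.9 CPM in WT and 21.2, 26.3 and 30.7 CPM in ns889 (0.76 ± 0.24, not called), and the contrasts differed by -2.07 ± 0.34.

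The 6 more positive genes were dod-24, irg-5, C32H11.4, F55G11.2, clec-3 and F10D2.10. Without mold dod-24 was at 32.7, 23.4 and 37.7 CPM in WT and at 31.4, 23.2 and 20.6 CPM in ns889. The genotypes overlapped there (-0.32 ± 0.19), and the contrast was 3.17 ± 0.28 higher with mold (edgeR adjusted p = 0.0012). irg-5 was at 2.68, 3.11 and 3.61 CPM in WT and 1.58, 2.07 and 2.49 CPM in ns889 without mold, so its contrast changed from -0.62 ± 0.26 to 2.35 ± 0.28, a difference of 2.96 ± 0.38 (edgeR adjusted p = 0.00566). F10D2.10, which lies between ugt-37 and ugt-41, was at 3.78, 4.37 and 3.31 CPM in WT and 9.07, 10.3 and 9.67 CPM in ns889 with mold (1.35 ± 0.14) and overlapped without it. gst-4 and gst-38 were not called without mold (-0.01 ± 0.20 and -0.09 ± 0.47), and the test of the difference did not call them either (edgeR adjusted p = 0.122 and 0.116). cyp-13A12 was at 1.22, 3.09 and 2.72 CPM in WT without mold and near the floor in ns889, at 0.0355, 0.0301 and 0.0302 CPM, so no fold is given there, and the difference of its contrasts was not called (edgeR adjusted p = 0.705).

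Digestive and lipid genes varied within their families. Among 24 cathepsin-type protease genes 2 were lower and 2 higher. cpr-1, a cathepsin B-like gene, was at 608, 665 and 558 CPM in WT and at 126, 197 and 167 CPM in ns889 (-1.90 ± 0.21), and asp-14, an aspartyl protease gene, at 265, 360.2 and 275 CPM and 754, 814 and 518 CPM (1.21 ± 0.20). These 2 proteases therefore moved in opposite directions, each without overlap. Summed over the 24 genes, the groups overlapped, at 11070 to 12480 CPM in WT and 11300 to 12160 CPM in ns889. Cathepsin-type calls numbered 4 higher and 5 lower without WT replicate 1, and 1 lower without WT replicate 2 or ns889 replicate 1 or 2. lipl-3, a lysosomal lipase gene known to respond to fasting, was at 6.47, 6.67 and 3.5 CPM in WT and at 0.291, 0.222 and 0.223 CPM in ns889 (-4.49 ± 0.37), with the other 6 lysosomal lipase genes not called. Without WT replicate 1 that list held 2 lower genes.

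Of 64 genes for fatty acid activation and beta-oxidation, 4 were higher and 1 lower, near the 5.12% and 1.61% over all genes. Without WT replicates 1, 2 and 3 the counts were 7, 2 and 3 higher and 3, 0 and 0 lower; with each ns889 replicate left out 3 were higher, and 0, 0 and 1 lower. cpt-5, a carnitine palmitoyltransferase family gene, was at 15, 25.8 and 21.9 CPM in WT and at 47.6, 61.2 and 51 CPM in ns889 (1.35 ± 0.19). ech-1.1, an enoyl-CoA hydratase family gene, was at 6.25, 6.48 and 4.17 CPM and 14.2, 16.5 and 11.8 CPM (1.33 ± 0.19). Both were higher in every ns889 replicate. Of 23 genes for fatty acid synthesis and desaturation 4 were called higher, but 4, 0 and 2 without WT replicates 1, 2 and 3 and 3, 2 and 1 without ns889 replicates 1, 2 and 3.

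Of 10 CHK kinase-like genes of the T16G1 and F59B1 groups 3 were lower and 1 higher, and the lower calls were kept in each fit with 1 replicate left out, while the higher call went to 2, 0 and 0 without WT replicates 1, 2 and 3 and to 0 without ns889 replicate 1. T16G1.6 was at 39.1, 54.3 and 32 CPM in WT and at 4.18, 5.31 and 4.41 CPM in ns889 (-3.17 ± 0.33), and F59B1.8 at 24.3, 26.7 and 27.5 CPM and 8.95, 8.08 and 7.8 CPM (-1.66 ± 0.11). Neither overlapped. Of 7 cadmium-responsive and metallothionein genes, the latter encoding metal-binding proteins, 3 were lower. cdr-2 was at 79.2, 60.4 and 52 CPM in WT and at 18.8, 17.6 and 15.4 CPM in ns889 (-1.89 ± 0.23), and cdr-4 at 72.8, 88.6 and 79.2 CPM and 29.2, 21.4 and 20.2 CPM (-1.77 ± 0.13). Both kept their calls, and without WT replicate 2 or ns889 replicate 3 the count was 2.

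Yolk protein (vitellogenin) genes, which the intestine expresses to provision oocytes, were lower in 5 of 6 cases. vit-2 was at 20290, 24220 and 26550 CPM in WT and at 14520, 13250 and 15490 CPM in ns889 (-0.72 ± 0.09), and vit-6 at 24650, 29730 and 32550 CPM and 19900, 18840 and 20880 CPM (-0.54 ± 0.09). The groups did not overlap for either gene, and WT replicate 1 was the WT library closest to ns889. The summed level of the 6 genes was 56800, 73420 and 81600 CPM in WT and 45500, 40900 and 46900 CPM in ns889. Calls numbered 6, 3 and 3 without WT replicates 1, 2 and 3 and 5, 3 and 3 without ns889 replicates 1, 2 and 3, with vit-2, vit-5 and vit-6 kept in each of these fits. vit-3, vit-4 and vit-5 are close copies of each other and may share reads.

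More cuticle genes were higher than lower in ns889, and the WT replicates differed widely among themselves. Of 149 cuticle collagen genes 22 were higher and 3 lower, against 5.12% and 1.61% of all genes. The median was 0.94, against -0.00752 over all genes. The mean log2 level of the list relative to all 12 replicates was 0.141, -0.417 and -0.79 in the WT replicates and 0.596, 0.495 and 0.483 in ns889. WT replicate 1 was nearest to ns889 and WT replicate 3 farthest. The 6 hypodermis markers, of the tissue that makes the cuticle, had a mean log2 level of 0.112, -0.265 and -0.242 in WT and 0.556, 0.223 and 0.179 in ns889, without overlap. Their summed level went the other way, at 2927 to 3225 CPM in WT and 2442 to 2865 CPM in ns889. The markers were split, with 3 of the 6 at a log2 fold change above 0. All ns889 replicates lay above WT for 2 markers and below it for 2, against 17.9% and 13.5% of all genes. The markers include col-19 and wrt-2, from the gene families of the collagen and hedgehog-related lists. None was called, but 2 were higher without WT replicate 1, and their part in the cuticle and hedgehog-related results was not tested. Summed collagen CPM, which abundant members dominate, went the other way, at 44370 to 52500 CPM in WT and 41080 to 48450 CPM in ns889, with overlap. Leaving out WT replicates 1, 2 and 3 gave 69, 1 and 3 higher collagens and 10, 0 and 1 lower ones, and leaving out ns889 replicates 1, 2 and 3 gave 5, 4 and 11 higher and 1, 0 and 3 lower. col-157 was at 6.24, 2.72 and 1.4 CPM in WT and at 25.7, 21.3 and 13.9 CPM in ns889 (2.55 ± 0.58), and it lost its call without WT replicate 2 or 3 or ns889 replicate 1 or 2 (edgeR adjusted p = 0.0893, 0.0725, 0.0678 and 0.0581).

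Hedgehog-related and patched-related genes, many of them expressed in the epidermis around molts, were higher in 14 of 72 cases and lower in 1. The shares over all genes were 5.12% and 1.61%. The mean log2 level of the 72 genes was -0.012, -0.23 and -0.275 in WT and 0.36, 0.259 and 0.177 in ns889. The order of the WT replicates was thus that seen for collagens. Higher calls numbered 21, 3 and 3 without WT replicates 1, 2 and 3 and 2, 4 and 5 without ns889 replicates 1, 2 and 3, with lower calls at 3, 1 and 1 and at 1, 0 and 1. wrt-6 was at 2.21, 0.729 and 0.904 CPM in WT and at 8.61, 7.17 and 5.94 CPM in ns889 (2.49 ± 0.46), and grd-14 at 6.89, 6.16 and 5.53 CPM and 16.6, 21.5 and 14.8 CPM (1.51 ± 0.26), and both kept their calls in those fits.

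Sperm genes followed the collagen order in the WT replicates, whereas yolk genes and oocyte and eggshell genes ran the opposite way. Of 48 spermatogenesis genes 8 were higher and 0 lower, against 5.12% and 1.61% of all genes. The mean log2 level of the 48 was -0.185, -0.346 and -0.787 in WT and -0.117, 0.111 and 0.00954 in ns889. Higher calls were 13, 4 and 3 without WT replicates 1, 2 and 3 and 5, 4 and 3 without ns889 replicates 1, 2 and 3. fer-1, needed for the fusion of sperm organelles with the cell surface, was at 11.1, 10 and 6.75 CPM in WT and at 29, 37.3 and 34.5 CPM in ns889 (1.85 ± 0.23, edgeR adjusted p = 0.000467), with no overlap. Of 29 major sperm protein genes 0 were called, and their summed level overlapped, at 591.9 to 1149 CPM in WT and 908.9 to 1013 CPM in ns889. The 38 oocyte and eggshell genes had a mean log2 level of 0.0999, 0.119 and 0.266 in WT and 0.151, -0.0148 and -0.0497 in ns889, with overlap. Of these genes 1 was higher and 2 lower, and these counts were 2 and 4 without WT replicate 1, 1 and 1 without WT replicate 2 or 3 or ns889 replicate 3, and 1 and 0 without ns889 replicate 2. Whether the spread between WT replicates in cuticle, yolk and sperm genes bears on the other differences was not tested. By list, the 350 higher and 107 lower genes kept in all 6 fits with 1 replicate left out included 1 member of the cuticle collagen list. They also held 2 hedgehog-related and patched-related, 3 vitellogenin and 3 spermatogenesis genes. These fits cannot remove a difference shared by all replicates of a genotype, so the counts do not answer that question.

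**Figure D5:**
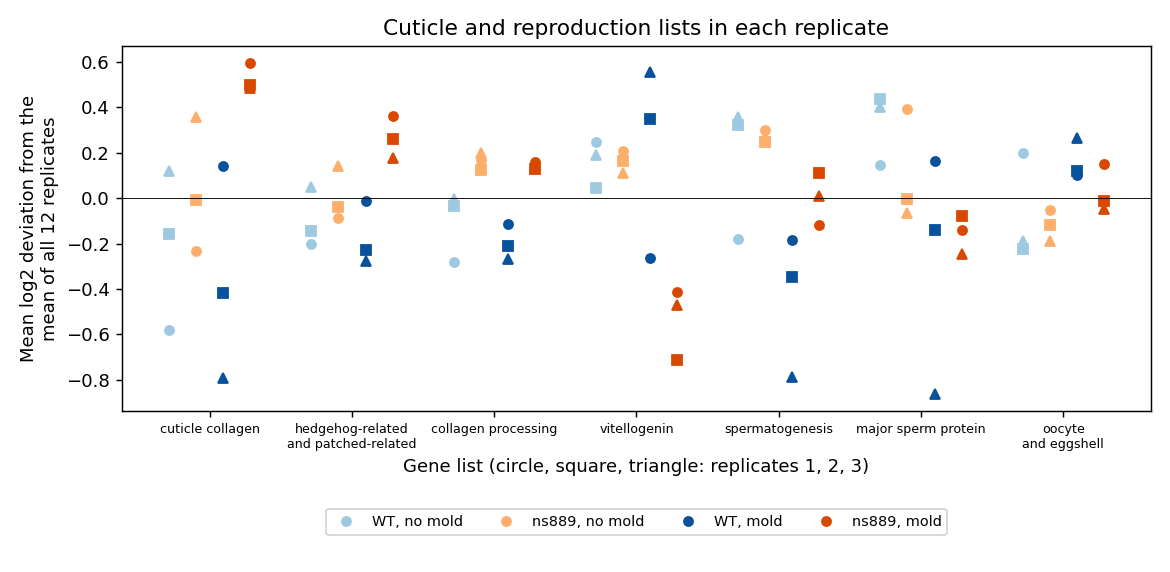
Mean log2 deviation of 7 cuticle and reproduction lists (horizontal axis) from the mean of all 12 replicates (vertical axis), with 1 symbol per replicate and group. With mold, collagen values run from -0.79 to 0.141 in WT and from 0.483 to 0.596 in ns889, and vitellogenin values from -0.262 to 0.553 in WT and from -0.714 to -0.415 in ns889.

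Stress and growth lists held few calls. Of 15 genes of the mitochondrial unfolded protein response 1 was higher, hsp-6, a mitochondrial chaperone gene. It was at 1037, 1030 and 1008 CPM in WT and at 1216, 1190 and 1246 CPM in ns889 (0.25 ± 0.07, edgeR adjusted p = 0.0486), close to the threshold. hsp-6 kept its call without WT replicate 1 and lost it without any other single replicate (edgeR adjusted p of 0.0561 to 0.147). hsp-60, its companion chaperone, was at 686, 623 and 534 CPM in WT and 757, 644 and 725 CPM in ns889 and was not called (0.21 ± 0.11). Of 30 genes of the endoplasmic reticulum unfolded protein response 3 were higher, against 5.12% of all genes. That count was 16, 1 and 2 without WT replicates 1, 2 and 3 and 1, 2 and 1 without ns889 replicates 1, 2 and 3. A log2 fold change above 0 was seen for 22 of the 30, with a median of 0.234 against -0.00752 over all genes. Their mean log2 level was 0.0281, -0.483 and -0.448 in WT and 0.289, 0.47 and 0.395 in ns889, without overlap. In contrast, hsp-4, the chaperone most used as the readout of this response, was at 355, 333 and 353 CPM in WT and 345, 335 and 334 CPM in ns889 (-0.04 ± 0.06). Cytosolic heat shock genes were higher in 1 of 18 cases, and that count was 0 without any replicate other than WT replicate 3. Of 79 ribosomal protein genes 73 had a log2 fold change above 0, with a median of 0.0776 against -0.00752 over all genes. Called higher were 3, against 5.12% of all genes. The count was 8 without WT replicate 1, 3 without ns889 replicate 2 and 1 without any other, with 1 lower gene without WT replicate 3. rpl-24.2 stood out among them, at 72.5, 67.3 and 72.4 CPM in WT and 106, 111 and 109 CPM in ns889 (0.62 ± 0.07).

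The remaining lists held 0 to 5 calls each, and 0 to 6 higher and 0 to 4 lower members with 1 replicate left out. Epidermal antimicrobial peptide genes were higher in 1 of 34 cases, chitinase and chitinase-like genes in 1 of 25, insulin-like peptide genes in 1 of 25 and beta-lactamase domain genes in 1 of 9. Genes of the hypoxia and hydrogen sulfide response were higher in 1 of 13 cases, and genes for superoxide dismutase, catalase and peroxiredoxin in 2 of 26. Neuropeptide genes had 2 higher and 1 lower of 97, transthyretin-related genes 2 higher and 3 lower of 56, O-acyltransferase homologs 1 higher and 2 lower of 36, and nuclear-encoded respiratory chain genes 1 of each of 46. Genes for propionate breakdown were lower in 2 of 10 cases, and those of the methionine cycle and phosphocholine synthesis were called in 0 of 20. Of 5 pharynx markers 1 was higher, phat-1, at 0.209, 0.0411 and 0.123 CPM in WT and 0.736, 0.332 and 0.715 CPM in ns889, a call that was lost without any single replicate other than WT replicate 1.

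Calls were spread over all nuclear chromosomes. Chromosomes V and X held the highest shares of lower genes, 2.33% and 2.28% of those tested against 0.975% to 1.42% on the others, and shares of higher genes ran from 4.14% on X to 5.99% on II. None of the 14 mitochondrial genes tested was called, with either direction at 0.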

How the data were processed

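Poly(A) RNA of whole C. elegans was sequenced as 20 libraries, for which the authors deposited raw counts of reads by gene, with no normalization. FastQC 0.11.12, STAR 2.4a, featureCounts, edgeR 3.28.1, limma 3.42.2 and genome build WBcel235 are named, per the submitters' processing notes. Strand setting, annotation release and featureCounts version: not given in the sources used here. Symbols came from a table of gene names holding 44017 of the 46904 gene IDs. Coordinates are those of the deposited table.

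Both runs of replicates 2 and 3 were summed, giving 12 replicates of 95998037 to 115940062 counts. Replicate 1 of each group had 1 run. Chi-square over degrees of freedom was 1.07 to 1.11 between runs of a replicate and 11.6 to 182 between a group's replicates, so none was treated as a repeat. Genes passing filterByExpr were scaled by TMM and tested with edgeR 4.0.16 (R 4.3.3; estimateDisp, robust glmQLFit, glmQLFTest) in 1 model of 4 group means over the 12 replicates, with Benjamini-Hochberg adjustment over 16980 genes at 0.05. The contrasts were ns889 against WT with mold, the same without mold, and their difference. The value after ± beside a log2 fold change is its standard error. The scripts were tested on simulated data first. Figures used matplotlib 3.10.9.

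The text names, by rule, called genes without overlap at a mean of at least 5 CPM with the 15 highest and 15 lowest log2 fold changes on mold. It adds up to 4 called members of each of 49 lists by smallest p, or else up to 2 abundant ones, the 5 highest and 5 lowest differences, and 6 fixed genes; some are left out. Any other gene is said to be chosen after its values were seen, or is a list member named by its call. A list for the respiratory genes of mitochondrial DNA matched no symbol and was not analysed here. The comparison, lists and rule were chosen with earlier results of these data known. Alternatives were RLE factors, DESeq2 1.42.0, limma-voom (limma 3.58.1), 2 other filters, the first run only, a replicate block, a fit of only 2 groups, a fold minimum and leaving out replicates.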

Additional observations from a re-analysis of the deposited data

Results flagged for a closer look

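The genotype contrast of 22 genes differed between the conditions by the test of the difference itself (edgeR adjusted p under 0.05 over 16980 genes, 3 replicates in each of the 4 groups). Values are the log2 fold change of ns889 over WT with mold minus the same without mold. The differences were -5.615 for ilys-2, -5.596 for cyp-33C2, -5.113 for thn-1, -4.272 for gst-44 and -3.877 for cyp-14A4. They were -3.864 for ZK697.14, -3.415 for ugt-37, -3.177 for lipl-3, -3.099 for thn-2, -2.152 for cpr-1 and -2.066 for lys-7. Smaller negative differences were -2.02 for bcmo-2, -1.633 for ugt-41, -1.584 for ilys-5, -1.171 for F59B1.8 and -0.9416 for vem-1. The positive ones were 1.197 for F10D2.10, 2.452 for F55G11.2, 2.654 for clec-3, 2.936 for C32H11.4, 2.962 for irg-5 and 3.169 for dod-24. The values for ilys-2 and thn-1 rest on ns889 levels close to the floor and are no bounds on the differences.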

How the results depend on the processing

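Counts of called genes, given as higher and lower, moved more with the tool and the filter than with the scaling. With mold they were 870 and 273, and became 1492 and 484 in DESeq2, 524 and 145 with a minimum mean of 5 CPM (fewer genes tested) and 472 and 90 with a minimum absolute log2 fold change of 1. With 1 replicate left out they ranged over 408 to 1326 and 117 to 542, and the highest counts of both were those without WT replicate 1. Without mold (411 and 77), DESeq2 gave 207 lower, the 5 CPM filter 43 lower, a fit of only the groups compared 266 higher, and the fold minimum 118 and 42. Leaving out 1 replicate there gave 276 to 458 and 43 to 211, with 211 lower genes when WT replicate 1 was out. The difference of the contrasts (6 and 16) became 44 and 32 in DESeq2 and 3 and 8 with the 5 CPM filter. It ranged over 4 to 24 and 11 to 21 with 1 replicate left out, 24 being the count without WT replicate 1 of the condition without mold. An added alternative, picked once the data had been seen, omitted 2 WT replicates at once, number 1 without mold and number 3 on mold. It gave 1302 and 571 on mold, 751 and 566 off it, and 85 and 29 for the difference. The cause of these moves was not tested beyond the construction named. RLE scaling, limma-voom, no filter and the first run only kept each of these 6 counts within 1.5 times. No named gene reversed under the alternatives run, and 79 of the 138 called named genes kept their call in every alternative without a fold minimum. Precision is limited by 3 replicates a group and by low counts of genes near the floor.

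With the replicate number as a replicate block the counts were 765 and 322 with mold, 443 and 83 without, and 6 and 16 for the difference. Deviations of same-numbered replicates correlated at -0.0333, 0.164 and -0.118 with mold and at 0.399, -0.0546 and 0.513 without, so the numbers were not taken to pair the samples. Not every replicate correlated best with its own number.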

Other observations

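Several gene groups outside the lists, picked after their values were seen and therefore given without a test of the group, moved in ns889. Among 18 tested genes named nol, nsun, pro or rpoa, many of which act in ribosomal RNA synthesis and processing, 15 were called higher with mold (83.3%, against 5.12% of all genes) and 0 lower. Without mold 16 of the 18 were higher, and the median log2 fold changes were 0.378 and 0.442 with and without mold. nath-10, an N-acetyltransferase gene, was at 85.4, 87.2 and 87.9 CPM in WT and at 151, 153 and 161 CPM in ns889 with mold. The groups did not overlap, and its log2 fold change was 0.83 ± 0.06 with mold and 0.79 without. fib-1, which encodes fibrillarin, a nucleolar RNA methyltransferase, had a log2 fold change of 0.32 in both conditions. Its call with mold was not kept in all 6 fits with 1 replicate left out. Of 28 tested math genes, whose products carry a MATH domain and 26 of which lie on chromosome II, 9 were called higher with mold and 4 without, with medians of 0.613 and 0.453. Of the 9, only math-15, math-22, math-38 and math-42 kept their call in all 6 fits with 1 replicate left out. Paralogs among them may share reads.

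Among genes of fatty-acid-binding proteins, lbp-8 was at 2.54, 4.24 and 3.69 CPM in WT with mold and at 0.109, 0.0462 and 0.00928 CPM in ns889, where 1 replicate lay below the floor of 3 counts. lbp-1 (-0.63 ± 0.08) and lbp-2 (-0.45 ± 0.06) had smaller log2 fold changes. Of 9 tested lbp genes 3 were called lower and 0 higher, against 1.61% and 5.12% of all genes. The lbp genes, vem-1 and ZK697.14 were picked here after their values were seen. vem-1 was at 50.9, 53.1 and 51.6 CPM in WT with mold and at 26.7, 30.4 and 30.8 CPM in ns889, a log2 fold change of -0.82 ± 0.09. ZK697.14 was at 3.29, 5.27 and 5.39 CPM in WT with mold and at 0.173, 0.388 and 0.269 CPM in ns889, a log2 fold change of -4.07 ± 0.33. In each of these 3 genes with values for every replicate, WT and ns889 did not overlap on mold.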
